A study of Mus musculus with 9 samples.

Results

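The granins Vgf, Chga, Chgb, Scg2, Scg3 and Scg5 and the neuropeptide precursors Npy, Nmu, Gal and Cartpt were followed in mouse microglia before and after they were fed apoptotic neuroblastoma cells. These 10 genes, of 34650 gene names on the array, were found by the gene name of their probes, and all 10 were among the 24101 genes that passed the filter (at least 1 of the 9 arrays well above background). Each gene had 1 probe, which was spotted 10 times for Chgb and once for each of the others. The genes were chosen on the array levels measured here, from their differences against control at 3 h and 24 h, so levels against control are given here as a description and carry no test. The difference between the fed groups was tested. It equals the difference at 24 h minus that at 3 h, which the choice used, so its p-values are not independent of the choice.

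RNA came from primary microglia of fms-EGFP mice, in which a promoter of the macrophage receptor gene Csf1r drives green fluorescent protein. Brains of pups on postnatal day 0 or 1 were pooled, the cells were grown with granulocyte-macrophage colony stimulating factor at 5 ng/ml, shaken off and left to settle for 24 h or more. The control group had no phagocytic stimulus (time 0), and the Ph3h and Ph24h groups were fed for 3 h and 24 h with SH-SY5Y cells, a human neuroblastoma line, that had been labeled with the dye CM-DiI and killed with staurosporine (3 µM, 4 h). Each group had 3 arrays from independent experiments. Only the floating dead cells were added, at about 1 per microglial cell. No unfed cultures kept for 3 h or 24 h are among the groups, so feeding and time in culture cannot be told apart.

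Granins are acidic proteins of the regulated secretory pathway: they collect in dense-core vesicles of neurons and endocrine cells, help to load these vesicles, and are cut into peptides. Neuropeptide precursors enter the same vesicles and are cut by proconvertases at pairs of basic residues before release. Both families are best known from neurons, the adrenal medulla and endocrine tumors, and the sympathetic lineage from which neuroblastoma arises is rich in them.

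The arrays read these transcripts through probes of 60 bases, and the positions below are those of the array files on mouse build mm9. The probes of the 4 neuropeptide precursors are shown whole, since each is the only sequence through which its gene was read. The Npy probe begins at base 219 of its transcript and the Cartpt probe at base 286, and both cover more genome than their length (3763 and 990 bases), so each bridges an intron. The Gal and Nmu probes begin at bases 376 and 479 and match without a gap.
Npy (chr6:49773743-49777505, plus strand): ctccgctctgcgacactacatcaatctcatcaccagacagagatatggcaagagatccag
Nmu (chr5:76769788-76769847, minus strand): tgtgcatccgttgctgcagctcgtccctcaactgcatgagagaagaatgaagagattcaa
Gal (chr19:3411143-3411202, minus strand): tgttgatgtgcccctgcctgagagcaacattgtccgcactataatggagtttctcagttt
Cartpt (chr13:100668967-100669956, minus strand): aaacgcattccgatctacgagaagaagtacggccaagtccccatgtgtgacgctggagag

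Of the 6 granin probes, those of Vgf, Scg2 and Scg5 hold AATAAA, the letters of the polyadenylation signal. Where the transcripts end was not looked up. The signal stands in capitals in the 30 bases around it shown here, and the coordinates are those of the whole probe.
Vgf (chr5:137509153-137509212, plus strand): tagttttgctaagaAATAAAagtgactatt
Scg2 (chr1:79431323-79431382, minus strand): gtggagttctggagcaaaaccAATAAAgca
Scg5 (chr2:113616781-113616840, minus strand): ctgctacattagAATAAAagctccttctct
The probes of Chga (chr12:103803083-103803142, plus strand), Chgb (chr2:132620703-132620762, plus strand) and Scg3 (chr9:75491320-75491379, minus strand) do not hold it and begin at bases 1727, 2627 and 2000 of their transcripts. The share of G and C was 35.0% in the Vgf and Scg2 probes and between 40.0% and 53.3% in the others.

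Promoter windows from RefSeq (GRCm38.p6, 250 bases before to 50 after a start site) were found for 9 of the 10 genes, all but Vgf. The windows of Cartpt and Scg3 lie within the span of their gene, so they stand at an internal start site. The windows were searched on both strands for 5 motifs. The cyclic AMP response element (CRE), TGACGTCA, stood in 3 of the 9 windows, those of Scg2, Chgb and Cartpt, and in 1.79% of all 32851 windows. Its half-site TGACG, which every full CRE contains, stood in 8 of 9 and in 20.8% of all. The Sp1 motif GGGCGG stood in 7 of 9 (35.7% of all), the TATA box letters TATAAA in 1 of 9 (13.6%) and the AP-1 motif TGANTCA in 1 of 9 (7.81%). The TATAAA match, in Chga, begins at position 5 after the start site, so it is not an upstream TATA box. Variants of these letters were not searched. The 150 bases before the start site are shown for the 3 genes with a CRE and for Chga, because the 4 differ in how their transcripts behaved; capitals mark the CRE, or in Chga the half-site.
Scg2 (chr1:79440027-79440176, minus strand): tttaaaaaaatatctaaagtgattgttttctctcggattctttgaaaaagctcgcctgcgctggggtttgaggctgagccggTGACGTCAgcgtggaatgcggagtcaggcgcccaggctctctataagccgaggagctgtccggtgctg
Chga (chr12:102554791-102554940, plus strand): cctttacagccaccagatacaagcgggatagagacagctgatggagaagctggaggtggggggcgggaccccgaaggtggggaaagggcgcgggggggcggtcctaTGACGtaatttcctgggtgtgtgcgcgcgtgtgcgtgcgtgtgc
Chgb (chr2:132781492-132781641, plus strand): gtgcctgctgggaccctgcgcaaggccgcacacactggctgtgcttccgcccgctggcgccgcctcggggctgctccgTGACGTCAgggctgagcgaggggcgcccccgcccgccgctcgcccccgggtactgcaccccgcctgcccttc
Cartpt (chr13:99900684-99900833, minus strand): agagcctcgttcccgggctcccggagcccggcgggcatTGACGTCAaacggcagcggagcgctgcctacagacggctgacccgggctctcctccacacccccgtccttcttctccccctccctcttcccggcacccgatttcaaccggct
The CRE begins at position -68 from the start site in Scg2, -72 in Chgb and -112 in Cartpt, and the half-site of Chga at -44. A match describes the letters of these windows, and binding was not measured.

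Levels are log2 of the array intensity minus log2 of that array's 75th percentile, so that 0 is the 75th percentile of the array. This percentile was an intensity of 356 to 473 in control, 185 to 211 at 3 h and 156 to 161 at 24 h. The median difference from control over all genes was 0.07 at 3 h and 0.01 at 24 h on this scale, -0.07 and -0.14 with quantile normalization, -0.18 and -0.50 with median scaling and -0.99 and -1.37 without scaling between arrays, and differences are to be read against these medians. No spot was saturated. A level does not compare one gene with another, since probes differ in brightness.

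Against control, 7 of the 10 genes were called higher at 3 h and the same number at 24 h (limma, Benjamini-Hochberg adjusted p below 0.05 over all genes). Among all 24101 genes, 53.8% were called at 3 h (27.9% higher and 25.9% lower) and 63.1% at 24 h (29.9% higher and 33.2% lower). Since these comparisons helped to choose the genes, nothing is read from the counts. In bulk RNA a change in the share of one cell type and a change in RNA per cell cannot be told apart, and neither can transcripts of the microglia and of material they took up. Summed markers of the sympathetic lineage, to which SH-SY5Y belongs, were also higher, at 0.571 to 0.747 times the 75th percentile in control, 28.9 to 30.8 at 3 h and 27.0 to 28.8 at 24 h, and their part in the levels of these genes was not tested. The median difference of the 10 genes was 2.65 at 3 h and 3.98 at 24 h on the log2 scale. Genes called at both times were Vgf, Chga, Scg2, Npy, Nmu, Gal and Cartpt. The other 3 were Chgb, Scg3 and Scg5. These calls moved with the scaling. At 3 h 3 of 6 granins and 2 of 4 neuropeptide precursors were called with median scaling, and 3 of 6 and 3 of 4 with quantile normalization, all of them higher. Without scaling between arrays 3 granins were called higher and 1 lower at 3 h and 3 and 2 at 24 h, and among the neuropeptide precursors 2 were higher and 2 lower at 3 h and 3 and 1 at 24 h.

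**Figure D1:**
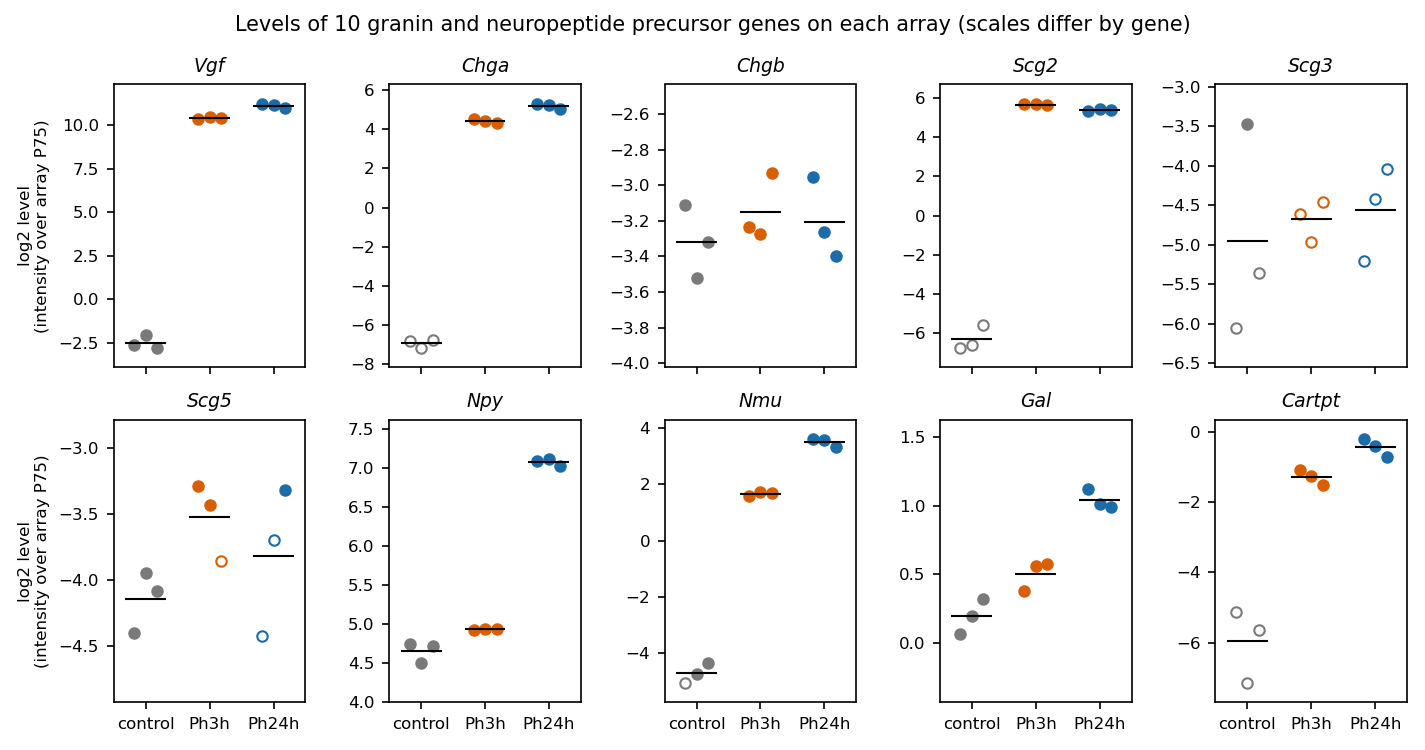
Log2 level of each gene on every array (y axis, intensity over the 75th percentile of the array; the scale differs by panel) in the control, Ph3h and Ph24h groups (x axis), with filled points for arrays well above background, open points for arrays that were not, and a bar at the group mean. Vgf, Chga, Scg2, Nmu and Cartpt separate widely from control, Npy and Gal by less (without scaling between arrays Npy lay below control at 3 h and Gal at both times), and Chgb, Scg3 and Scg5 overlap control at 24 h.

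Vgf, whose product is a secreted precursor induced by nerve growth factor, had the largest difference. The control arrays read -2.63, -2.05 and -2.78, those of Ph3h 10.34, 10.48 and 10.39, and those of Ph24h 11.21, 11.17 and 11.00. In unscaled intensity this ran from 51.9 to 99.7 in control, from 264446 to 274668 at 3 h and from 329369 to 373859 at 24 h. The groups were far apart and the fed groups did not overlap. The means differed from control by 12.89 (7593-fold) at 3 h and 13.61 (12527-fold) at 24 h. Both were first in the order of rises. This order covers genes well above background on 1 or more arrays of both groups compared, 19650 at 3 h and 19256 at 24 h.

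Chga, chromogranin A, stood at -6.79, -7.15 and -6.75 in control, 4.54, 4.41 and 4.34 at 3 h and 5.29, 5.24 and 5.04 at 24 h. No control array was well above background, so a fold against control is a lower bound. It is the mean of the fed arrays over the lowest level that counted as well above background on each control array, or over the gene's own level where that was higher. On this basis Chga was at least 589-fold higher at 3 h and at least 995-fold higher at 24 h. Scg2, secretogranin II and the source of secretoneurin, stood at -6.73, -6.63 and -5.57 in control, 5.66, 5.69 and 5.62 at 3 h and 5.35, 5.46 and 5.39 at 24 h. It too was not well above background on any control array, and it was at least 1380-fold higher at 3 h and at least 1152-fold higher at 24 h. In both genes the 3 arrays of each fed group lay within a narrow range.

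The remaining granins behaved otherwise. Chgb, chromogranin B and the nearest relative of Chga among these genes, stood at -3.11, -3.52 and -3.32 in control, -3.23, -3.28 and -2.93 at 3 h and -2.95, -3.26 and -3.40 at 24 h. These values overlapped in all 3 groups, although the probe was well above background on every array and was averaged over 8 to 10 spots. Its difference was 0.17 at 3 h and 0.11 at 24 h. The unscaled intensity of Chgb was 35.6 to 54.7 in control, 19.1 to 26.1 at 3 h and 15.3 to 20.3 at 24 h, so without scaling between arrays it lay below control. Its promoter window holds the same CRE letters as that of Scg2, and their part in the levels of either gene was not tested. Scg5, the 7B2 chaperone of the proconvertase PC2, stood at -4.40, -3.95 and -4.08 in control, -3.29, -3.43 and -3.86 at 3 h and -4.43, -3.70 and -3.32 at 24 h. It was well above background on 3 control, 2 Ph3h and 1 Ph24h array, and its 24 h values spread across those of control. Scg3, secretogranin III, which sorts chromogranin A into vesicles, was well above background on 1 of the 9 arrays, control replicate 2 with a level of -3.47. Its other values ran from -6.05 to -4.04 and give no order of the groups.

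Among the peptide precursors, Nmu, the precursor of neuromedin U, stood at -5.05, -4.73 and -4.35 in control, where 2 of 3 arrays were well above background, 1.57, 1.70 and 1.68 at 3 h and 3.59, 3.58 and 3.32 at 24 h. The means lay 6.36 (82.1-fold) and 8.21 (296-fold) above control. Cartpt, the precursor of the feeding peptides named CART, was not well above background in control, with levels of -5.12, -7.15 and -5.64. It read -1.08, -1.27 and -1.50 at 3 h and -0.21, -0.39 and -0.71 at 24 h, which is at least 11.2-fold and at least 20.2-fold higher. Its fed intensities were modest, at 70.3 to 136.

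Npy and Gal, unlike Nmu and Cartpt, were well above background on every control array. Npy, the precursor of neuropeptide Y, stood at 4.75, 4.50 and 4.71 in control, 4.92, 4.94 and 4.94 at 3 h and 7.10, 7.12 and 7.03 at 24 h. Its difference was 0.28 at 3 h, which turned to -0.77 without scaling between arrays, and 2.43 (5.39-fold) at 24 h. The unscaled Npy intensity was 9310 to 12705 in control, 5683 to 6404 at 3 h and 21146 to 21738 at 24 h, so the 24 h arrays were the highest on either scale. Gal, the precursor of galanin, stood at 0.07, 0.19 and 0.32 in control, 0.38, 0.56 and 0.57 at 3 h and 1.12, 1.01 and 0.99 at 24 h. The groups did not overlap, yet its differences of 0.31 and 0.85 turned to -0.74 and -0.53 without scaling between arrays, where its intensity was 443 to 496 in control, 273 to 296 at 3 h and 315 to 343 at 24 h. The direction of Gal against control, and of Npy at 3 h, thus depended on the scaling, whereas the signs of Vgf, Chga, Scg2, Nmu and Cartpt, and of Npy at 24 h, were the same with and without it.

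Within the fed groups the question was whether a transcript went on changing between 3 h and 24 h. Of the 10 genes, 5 were called higher at 24 h than at 3 h, 5 were not called, and none was lower at an adjusted or an unadjusted p under 0.05. Over all genes 44.4% were called in this comparison (20.4% higher and 24% lower), and the median difference was 0.63 for the 10 genes and 0.04 for all. Those called were Npy at 2.15 ± 0.08 (SE, n = 3 arrays per group, adjusted p = 1.5e-06, limma), Nmu at 1.85 ± 0.17 (adjusted p = 0.00010), Chga at 0.76 ± 0.13 (adjusted p = 0.0021), Vgf at 0.72 ± 0.18 (adjusted p = 0.014) and Gal at 0.54 ± 0.09 (adjusted p = 0.0019). As folds these were 4.44, 3.60, 1.69, 1.65 and 1.45. In each of them all 3 Ph24h arrays lay above all 3 Ph3h arrays. Npy and Nmu thus differed most between the feeding times, Npy from a 3 h level close to control and Nmu from one that was already far above it.

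The call of Vgf did not hold under other scalings. Its difference was 0.42 with quantile normalization (adjusted p = 0.090), 0.46 with median scaling (adjusted p = 0.10) and 0.40 without scaling between arrays (adjusted p = 0.18), all positive. Gal was not called with median scaling (0.27, adjusted p = 0.060) or without scaling (0.21, adjusted p = 0.13), and Chga was not called without scaling (0.43, adjusted p = 0.072). Npy and Nmu were called under all of these. The arrays sat on 2 slides, with replicates 1 and 2 of every group on slide 1 and replicate 3 on slide 2. The 5 differences had the same sign on both slides: Vgf 0.78 on slide 1 and 0.61 on slide 2, Chga 0.79 and 0.70, Npy 2.18 and 2.10, Nmu 1.95 and 1.65, and Gal 0.60 and 0.42. With slide 1 alone Vgf had an adjusted p of 0.058, and with slide as a block all 5 stayed below the threshold.

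Scg2 did not follow Chga and Vgf between the feeding times. Its difference was -0.26 (95% interval -0.92 to 0.40, adjusted p = 0.49), and all 3 Ph24h arrays were below the 3 Ph3h arrays. All 3 groups share 1 spread in the fit. With the fed arrays fitted alone the adjusted p of Scg2 was 0.023, and without control replicate 3 it was 0.015. Cartpt was 0.85 higher at 24 h (-0.27 to 1.96, adjusted p = 0.19), with an adjusted p of 0.014 in the fed arrays alone and 0.016 without control replicate 2. Chgb differed by -0.06 (-0.43 to 0.32, adjusted p = 0.80) and Scg5 by -0.29 (-0.98 to 0.40, adjusted p = 0.46). Scg3 was not well above background on any fed array.

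**Figure D2:**
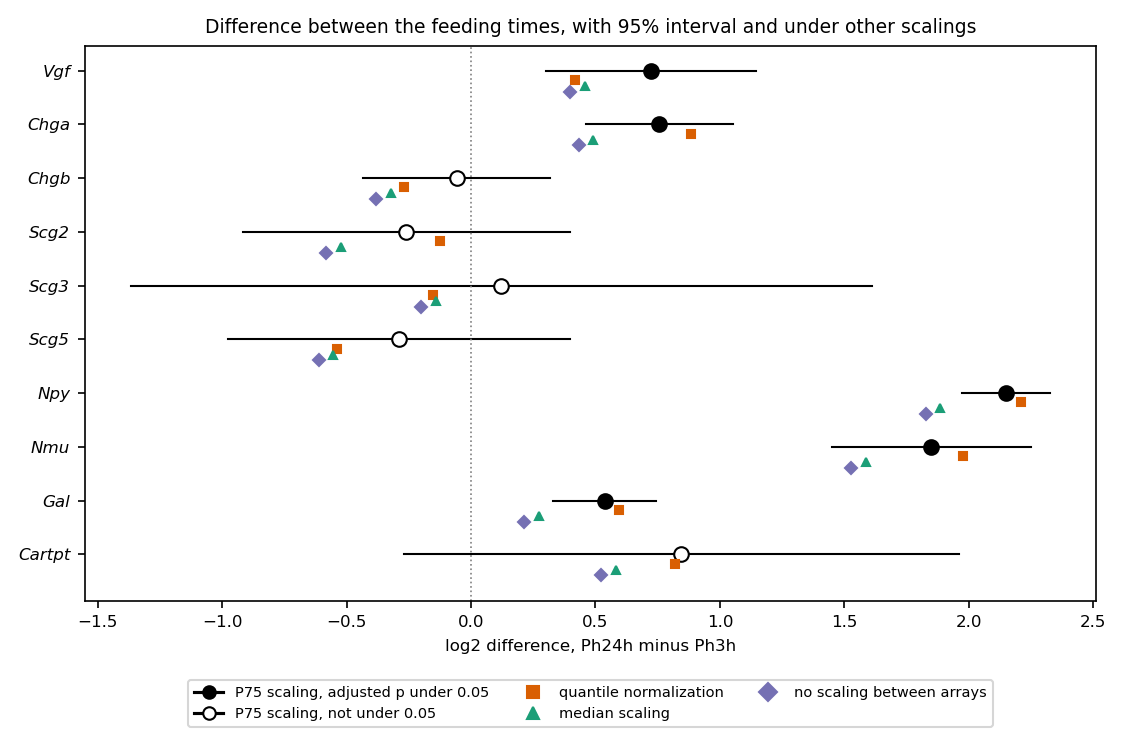
Log2 difference between Ph24h and Ph3h (x axis) for each gene (y axis). Circles with 95% intervals give the values scaled to the 75th percentile, filled where the adjusted p was under 0.05, and small symbols give the same difference under 3 other scalings. Npy and Nmu lie farthest from 0 under every scaling shown, Vgf, Chga and Gal lie above 0 under all of them, and Scg3 changes sign.

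The replicates of a fed group lay close together for the genes that stood above control. Ph24h replicate 3 was below its group mean in all 7 of these genes and the lowest of its group in 6, by 0.12 on average. Leaving it out moved no call of these 7 genes between the feeding times (Vgf 0.79, Chga 0.83 and Gal 0.56).

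The genes whose pattern was most like that of each member were found by the Euclidean distance between log2 levels on the 9 arrays, after each gene's mean was subtracted, over 24101 genes. Nearest to Vgf were Rpl10l (distance 1.72), Chga (2.36), Scg2 (2.68), Hand2 (2.85) and Lrrn3 (2.88). Hand2, a transcription factor of sympathetic neurons, was also the nearest gene to Chga (1.28) and to Scg2 (1.06). Nearest to Npy was Nos2, the inducible nitric oxide synthase (0.37), with differences of 0.18 at 3 h and 2.33 at 24 h. Nmu was nearest to Obsl1 (0.74), Cartpt to Casc4 (1.26), Gal to Bcas1 (0.20), Chgb to Vps13d (0.33) and Scg3 to AI852580 (0.83), and the gene nearest to Scg5 (0.47) has no symbol. Chga, Scg2 and Vgf were each among the 5 genes nearest to the other members of this trio, and none of them was among the 5 nearest to Npy. The genes were chosen on these same levels, and this distance depends on the size of a rise, so their nearness is only a description. No control array was well above background for Chga or Scg2, so their distances also rest on control values near the floor.

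The machinery that turns precursors into peptides was read from a list of 12 genes, of which 10 passed the filter. At 3 h 5 were called higher and 2 lower, at 24 h 2 higher and 4 lower, and between the feeding times 1 higher and 3 lower. The median differences were 0.26, 0.09 and -0.01. Of all genes 27.9% were called higher and 25.9% lower at 3 h, 29.9% and 33.2% at 24 h, and 20.4% and 24% between the times. Without scaling between arrays 1 was higher and 8 were lower at either time. No array showed Pcsk1, the proconvertase PC1/3, well above background. Pcsk2, the proconvertase PC2, was well above background on every array and was not called (0.32 at 3 h, adjusted p = 0.13, and 0.41 at 24 h, adjusted p = 0.056, which turned to -0.10 with median scaling and to -0.73 and -0.97 without scaling). Cpe, the carboxypeptidase that trims the cut ends, differed by 0.45 at 24 h (adjusted p = 0.27), which turned to -0.06 with median scaling and -0.92 without scaling. The other probes of Cpe differed by -0.66 and -0.52 at 24 h, and 1 of them was lower at 3 h (-1.31, adjusted p = 0.041). Pam, the enzyme that amidates peptides such as neuropeptide Y, galanin and neuromedin U, fell by 0.85 at 3 h (adjusted p = 0.00025) and by 0.40 at 24 h (adjusted p = 0.0083). Qpct, the glutaminyl cyclase, fell by 0.97 and 1.09 (adjusted p = 0.00019 and 7.9e-05). Cpd, a carboxypeptidase of the Golgi, was 0.23 higher at 3 h (adjusted p = 0.021, limma, but -0.01 with median scaling) and fell by 0.80 at 24 h. Pcsk5 was at least 2.52-fold higher at 24 h, where 2 of 3 arrays were well above background. Pcsk1n, the proSAAS inhibitor of PC1/3, was 0.91 and 1.31 higher, but -0.15 and -0.07 without scaling between arrays.

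Of 39 genes of dense-core vesicle biogenesis and release, 30 passed the filter. Calls went in both directions: 10 higher and 8 lower at 3 h, 11 and 9 at 24 h, 9 and 4 between the feeding times. The medians were 0.14, -0.02 and 0.18. As shares these were 33.3% higher and 26.7% lower, 36.7% and 30%, and 30% and 13.3%. All genes gave 27.9% and 25.9%, 29.9% and 33.2%, and 20.4% and 24%. Against control the list was thus near all genes. The balance shifted with the scaling, to 8 higher and 16 lower at 24 h with median scaling and 6 and 19 without scaling. The largest differences at 24 h among those called were in Ptprn, the vesicle membrane protein IA-2 (5.10 at 3 h and 7.17 at 24 h, well above background on 1 of 3 control arrays), Cplx1, a complexin that clamps vesicle fusion (at least 18.9-fold and 26.3-fold), Sv2c, a vesicle glycoprotein (at least 5.62-fold and 15.3-fold, although its other probe differed by 0.25 and 0.38), and Ica1, an adaptor of vesicle maturation (1.38 and 2.44, although its second probe fell by 1.10 at 24 h). The adjusted p for these genes against control lay between 6.1e-08 and 0.00016. All 4 were also higher at 24 h than at 3 h, with adjusted p from 2.8e-05 to 0.033.

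Of 54 other neuropeptide precursors, 30 passed the filter, and 24 did not, among them Sst, Vip, Adcyap1, Avp and Crh. At 3 h 12 were called higher and 4 lower, at 24 h 16 higher and none lower (limma; none at an unadjusted p under 0.05 either), and between the feeding times 10 higher and 3 lower. The medians were 0.70, 0.70 and 0.33, beside 0.07, 0.01 and 0.04 over all genes. Many of the 30 were dim: 16 to 23 were well above background on an array. With no filter the medians over all genes were 0.34, 0.46 and 0.22. At 3 h 6 of the 30, and at 24 h 5, were well above background in the fed group and on no control array. Of all genes 27.9% were called higher at 3 h and 29.9% at 24 h. With median scaling 8 were higher and 2 lower at 24 h, and without scaling 5 higher and 15 lower. Nmb, the precursor of neuromedin B, rose by 3.39 (adjusted p = 2.9e-07) and 4.19 (adjusted p = 7.3e-08), and its second probe by 3.07 and 4.07. Calca, the calcitonin and CGRP gene, was at least 5.73-fold and 4.48-fold higher, and Sct, the secretin precursor, at least 1.85-fold and 3.61-fold. Adm, the precursor of adrenomedullin, fell by 0.84 at 3 h and was 2.14 higher at 24 h.

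Receptors for the peptides were mostly dim. Of 11 genes, 4 passed the filter. None was called at 3 h by limma, where 1 (Galr3) had an unadjusted p under 0.05, and at 24 h 2 were called higher and 1 lower. Of all genes 29.9% were called higher and 33.2% lower at 24 h. The higher ones, Galr3 and Npy2r, were each well above background on 1 Ph24h array alone, and with no scaling between arrays no receptor was called higher. The lower one was C3ar1, the complement C3a receptor that also binds a peptide of VGF: it was well above background on every array, differed by -0.05 at 3 h (adjusted p = 0.59) and fell by 1.45 at 24 h (adjusted p = 2.5e-06) and by 1.41 between the feeding times (adjusted p = 5.3e-06). C3ar1 was thus lowest in the group in which Vgf was highest.

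The last list held 16 genes of the repressor REST and of CREB signaling, which bear on many granin promoters, and all 16 passed the filter. At 3 h 4 were called higher and 6 lower, at 24 h 4 and 7, and between the feeding times 2 and 3. The medians were -0.06, -0.18 and -0.09. Of all genes 27.9% were called higher and 25.9% lower at 3 h, 29.9% and 33.2% at 24 h, and 20.4% and 24% between the times. At 24 h 3 were higher and 10 lower with median scaling, and 2 and 14 without scaling. Crem, whose gene also encodes the inducible repressor ICER, rose by 4.17 (adjusted p = 6.5e-08) and then stood 1.85 above control (adjusted p = 1.8e-06). The second of its probes gave 4.27 and 1.34, and the third fell by 1.62 and 1.42, opposite to them. Crebbp, the CREB-binding coactivator, rose by 1.53 and 2.18, and its second probe differed by -0.59 and -0.49. Rcor2, a REST corepressor, fell by 1.47 at 3 h and was 1.01 higher at 24 h (-0.36 without scaling), and Hdac2 fell by 0.42 and 0.67. Rest itself was 0.45 higher at 3 h (adjusted p = 0.0060) and 0.49 at 24 h (adjusted p = 0.0036), but -0.60 and -0.89 without scaling between arrays and -0.02 at 24 h with median scaling.

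**Figure D3:**
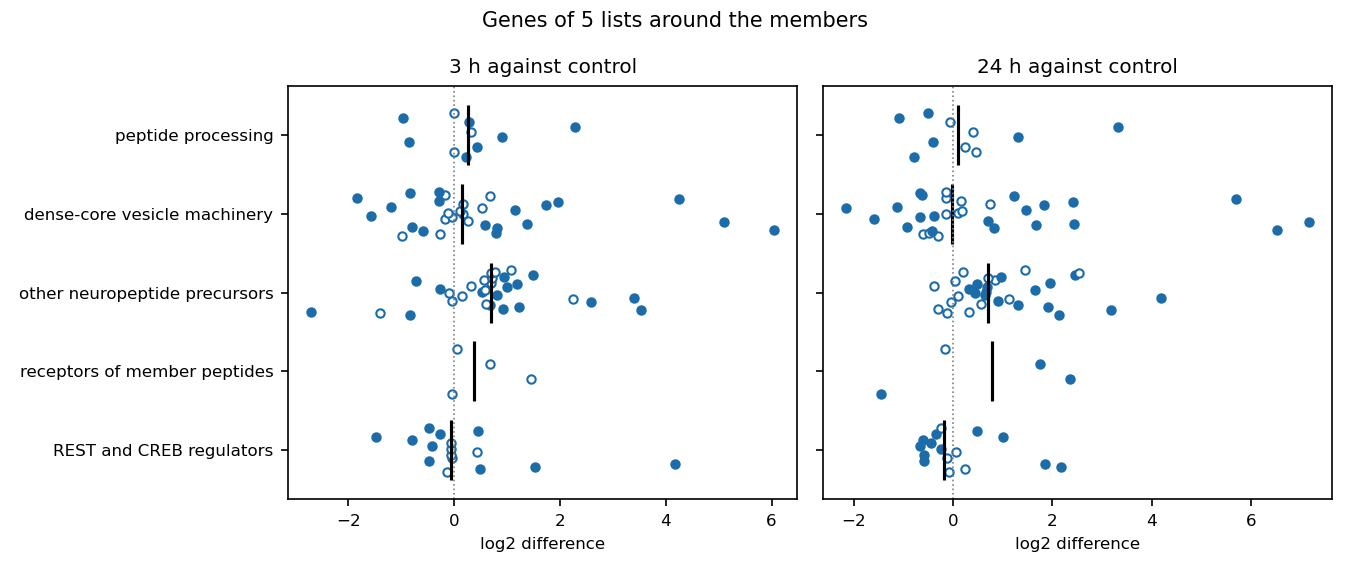
Log2 difference against control at 3 h and 24 h (x axes) for the genes that passed the filter in 5 lists (rows), scaled to the 75th percentile, with filled points for an adjusted p under 0.05 and a bar at the median of the list. Other neuropeptide precursors have medians of 0.70 at both times (-0.35 and -0.68 without scaling between arrays), and the other lists spread to both sides of 0.

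Cell type markers were read on the same arrays. All 13 microglial markers were well above background on every control and Ph3h array, and 12 on every Ph24h array, the exception being P2ry12, and the arrays carried the markers of the labeled cell type. Their summed level, in multiples of the 75th percentile, was 1635 to 1720 in control, 2044 to 2242 at 3 h and 1438 to 1542 at 24 h. At 3 h 6 of the 13 were called higher and 3 lower, but 2 and 9 without scaling between arrays. At 24 h 2 were higher and 9 lower, with a median of -0.46, and under the other scalings 10 to 12 were lower. Between the feeding times 2 were higher and 9 lower. Of all genes 27.9% were called higher and 25.9% lower at 3 h, 29.9% and 33.2% at 24 h, and 20.4% and 24% between the times. Cx3cr1, the fractalkine receptor, fell by 4.56 at 24 h and P2ry12, a purinergic receptor, by 1.94. The part of the microglial markers in the levels of the granins and neuropeptide precursors was not tested. Summed markers of neurons and of the sympathetic lineage were higher in the groups in which Vgf, Chga and Scg2 were higher. Of 14 neuronal markers, 10 passed the filter. By limma 7 were called higher at 3 h and 8 at 24 h (27.9% and 29.9% of all genes). None was lower, also at an unadjusted p under 0.05. At either time 4 of the 10 were well above background in the fed group and on no control array, so a call of lower was hardly open to them. Their summed level was 3.66 to 4.30 in control, 89.0 to 104 at 3 h and 126 to 135 at 24 h. Of 14 markers of the sympathetic lineage, 9 passed, 7 were called higher at each time, and 1 (Gata3) was lower at 3 h. At either time 5 of the 9 were well above background in the fed group and on no control array.

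Within these lists Stmn2 was 10.60 and 11.12 higher, Nefl at least 226-fold and 179-fold, Nefm at least 148-fold and 83.2-fold, Hand2 at least 640-fold and 547-fold and Isl1 at least 132-fold and 142-fold. Other defining markers stayed below that mark on all 9 arrays: Dbh, Phox2a, Ret, Alk and Chrna3 of the sympathetic list, and Dcx, Elavl3, Slc17a7 and Gad1 of the neuronal list. Rbfox3 and Tubb3 were not called. The part of the neuronal markers in the levels of the granins and neuropeptide precursors was not tested either. The study compared the probes of the array with human transcripts and reported low homology for most of them. It also reported degraded RNA and no active transcription in the apoptotic SH-SY5Y cells. From these RNA checks it proposed that the arrays detected microglial changes alone. Separately, it measured selected genes by quantitative PCR, among them Vgf and Cartpt. It reported patterns that largely matched the arrays, with Vgf among the genes of largest expression. None of this was repeated here, and the probe comparison was not made for the probes of these genes.

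Astrocyte markers summed to overlapping levels (15.0 to 19.3, 16.5 to 18.8 and 17.3 to 17.7 in the 3 groups, with 1 of 8 called higher at each time and 1 and 2 lower). Oligodendrocyte lineage markers summed to 266 to 326, 420 to 478 and 211 to 245 (3 of 9 higher at each time, 3 and 4 lower). Fibroblast markers summed to 0.850 to 1.60, 1.18 to 1.59 and 1.20 to 1.77 (1 and 2 of 4 higher). Of all genes 27.9% were called higher and 25.9% lower at 3 h, and 29.9% and 33.2% at 24 h.

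**Figure D4:**
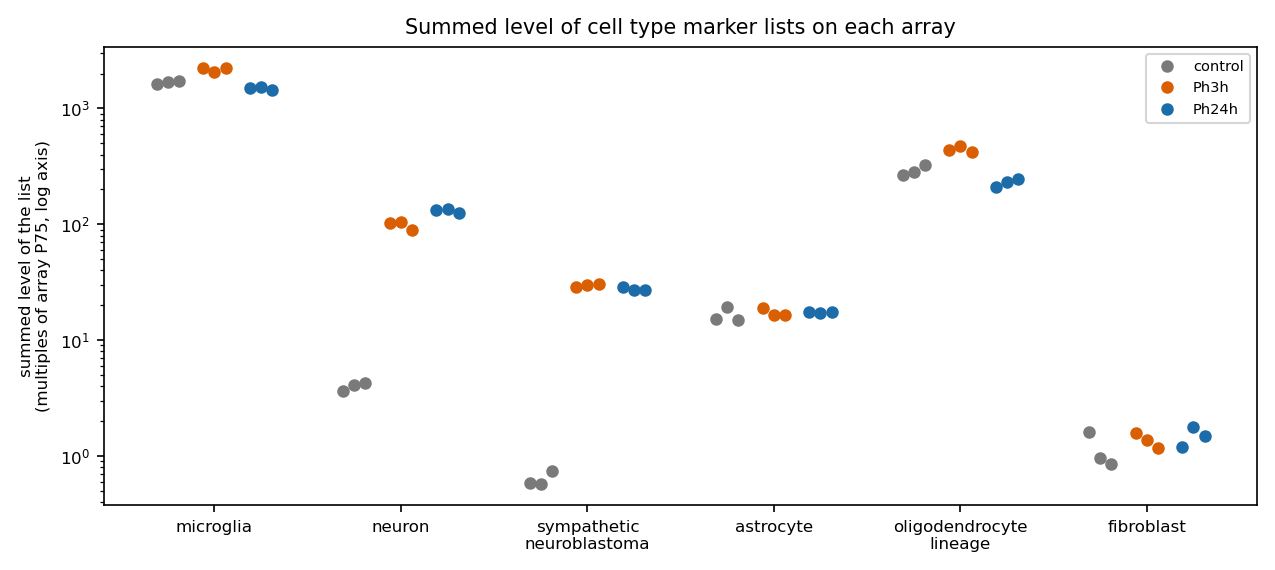
Summed level of the marker genes of each list that passed the filter (y axis, multiples of the array's 75th percentile, log axis) on every array of the 3 groups. The neuronal and sympathetic neuroblastoma lists are higher in both fed groups than in control, and the microglial list ranges from 1438 to 2242.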

How the data were processed

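One-color Agilent mouse arrays with 60-base probes were hybridized with RNA of 9 cultures. For each array the authors deposited the output of Agilent Feature Extraction 10.7.3.1, and its processed signal, a background-subtracted fluorescence intensity on a linear scale, was used. A value matrix deposited by the authors holds log2 values from GeneSpring GX, centered by probe, and served as an alternative.

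Control and flagged spots were removed, replicate spots averaged, and log2 intensities set relative to the 75th percentile of the array. Of 55681 probes (56 were dropped because all their spots were flagged on 1 or more arrays), 34381 were well above background on 1 or more arrays. They stand for 24101 genes, each read by its brightest probe. Groups were compared with limma 3.58.1 under R 4.3.3 (data.table version 1.17.8, jsonlite 2.0.0) in a single fit of the 9 arrays, with Benjamini-Hochberg adjustment across genes. The scripts were tested on simulated data. All 3 contrasts share arrays.

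The members and the lists were chosen with earlier results of these data known. Beside the members, the genes named are the called genes of each list where at most 4 were called, otherwise the 4 with the largest difference at 24 h among called genes without overlap, and Pcsk1, Pcsk2, Cpe, Pam, Rest, C3ar1 and the nearest genes by distance. Marker genes beyond this rule, second probes and the absent genes listed were named after their values were seen. Replicates were independent experiments according to the methods. Alternatives covered scaling, background correction, filters, the value matrix, probe averaging, variance, blocks, slide 1 alone and leaving out each array, and 1 more, no scaling between arrays, was chosen after seeing the data. Sequences came from the array files (mm9) and RefSeq (GRCm38.p6). The 3 arrays per group limit the precision.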

Additional observations from a re-analysis of the deposited data

Results flagged for a closer look

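In 5 of the 10 genes the difference from control was not the same at 24 h as at 3 h by the test of the difference itself (limma, Benjamini-Hochberg adjusted over all genes). The difference at 24 h exceeded that at 3 h by 2.15 in Npy (adjusted p = 1.5e-06), 1.85 in Nmu (adjusted p = 0.00010), 0.76 in Chga (adjusted p = 0.0021), 0.72 in Vgf (adjusted p = 0.014) and 0.54 in Gal (adjusted p = 0.0019), on the log2 scale. The same control arrays enter both differences. Both differences also helped to choose the genes, so these p-values are not independent of the choice. In each gene all 3 Ph24h arrays were above all 3 Ph3h arrays.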

How the results depend on the processing

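Between the feeding times Npy and Nmu kept direction and call under all 23 alternatives. With median scaling 3 of the 10 genes were called rather than 5, and without scaling between arrays, an alternative chosen after seeing the data, 2. Without scaling Npy at 3 h was -0.77, and Gal was -0.74 at 3 h and -0.53 at 24 h. Vgf was also not called in the authors' value matrix (0.42, adjusted p = 0.089, limma). Scg2 (-0.23, adjusted p = 0.013) and Cartpt (0.61, adjusted p = 0.00080) were called with normexp and quantile normalization. The cause was not tested.

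The sign of the differences of Scg3, Chgb and Scg5 between the feeding times, none of them called, changed with the setting. Scg3 was -0.15 with quantile normalization, -0.14 with median scaling, -0.029 with normexp and quantile normalization, -0.16 in the authors' value matrix, -0.025 on slide 1 alone and -0.20 without scaling, and ranged from -0.13 to 0.44 as single arrays were left out. Chgb was 0.15 on slide 1 alone and ranged from -0.18 to 0.049, and Scg5 ranged from -0.54 to 0.017, the last without Ph24h replicate 1.

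Called genes of a list changed in number by over 1.5 times as follows. Peptide processing at 3 h had 4 with median scaling (7 in the report). Other precursors had 28 at 3 h and 31 at 24 h with no filter, and 10 at 24 h with median scaling (16 at either time). Receptors at 3 h (0) had 1 with median scaling or slide 1 alone, 2 with the authors' value matrix, with the compared groups alone or without scaling, 7 with no filter, and 0 to 1 with single arrays left out. Receptors at 24 h (3) had 1 with the filter on all arrays of a group or the methods' regression and 9 with no filter, and between the feeding times (1) 3 with the value matrix and 2 with no filter. REST and CREB genes at 3 h (10) had 6 on slide 1 alone and 16 without scaling, and between the feeding times (5) 9 with quantile normalization, the value matrix or a variance trend, and 11 with median scaling or without scaling.

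Scaling also set how all calls split. Of calls at 3 h, 24 h and between the feeding times, 51.8%, 47.4% and 46% were higher, against 33.7%, 23.9% and 22.6% with median scaling, 7.6%, 7.31% and 19% without scaling, and 66.9%, 65% and 47.4% with no filter.

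The replicate numbers did not pair the samples (correlation of same-numbered deviations from -0.06 to 0.04). With the replicate block all 5 genes were called between the feeding times (Npy 2.15, Nmu 1.85, Chga 0.76, Vgf 0.72, Gal 0.54), and 12518, 14769 and 10062 of all genes were called at 3 h, at 24 h and between the times.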
